A study of Pimephales promelas with 338 samples.

Results

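The libraries described here are those of fathead minnow (Pimephales promelas) larvae exposed to 2-tert-butyl-4-methoxyphenol at the codes D1 and D2, together with the solvent controls of the same exposure plates. They were taken by their labels, not by any measured value, and comprise 7 of the 338 libraries of the series: 1 library at D1, 3 at D2 and 3 of dimethyl sulfoxide (DMSO). The series measured whole-body RNA with TempO-Seq, an assay that joins neighbouring oligonucleotides on their target transcript and counts the joined products. It tested 12 chemicals for 24 h at 8 codes each, in pairs of chemicals that shared 3 exposure plates. Nominal concentrations of 2-tert-butyl-4-methoxyphenol ran from 66.67 to 0.021 µM. The labels do not say which concentration belongs to which code, so D1 and D2 are used as names. D1 is represented by replicate A alone, since the series holds no library for replicates B and C of D1.

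Every library was a pool of whole larvae of 1 treatment on 1 plate, 5 by design, with dead larvae left out, so a pool may hold fewer. The groups were larvae in 2-tert-butyl-4-methoxyphenol at D1, larvae in the same chemical at D2, and larvae in DMSO. All of them shared the DMSO vehicle, which was kept at 1 level across wells. Replicates A, B and C came from different plates and different larvae, so the p-values measure a spread between pools. That spread was estimated over all groups of the fit together, and not from the D2 and DMSO pools alone. In a whole-body homogenate, fewer cells of a type and less RNA per cell cannot be told apart.

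2-tert-Butyl-4-methoxyphenol is better known as butylated hydroxyanisole, a synthetic phenolic antioxidant used to preserve fats and foods. In mice it is a classical inducer of genes controlled by NRF2, a transcription factor that is held down by KEAP1 until electrophiles or oxidants modify that sensor, and that then binds antioxidant response elements together with small Maf proteins. Genes under this control make and recycle glutathione, supply NADPH, reduce peroxides and conjugate foreign compounds.

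Total counts ran from 480606 to 703958 in the 7 libraries, and 1690 to 1746 of the 1832 probes had a count. Levels are given as CPM, counts scaled by the library total, and log2 fold changes come from edgeR's quasi-likelihood fit over the 52 libraries of the exposure. Replicate A of D2 stood apart from its group before any comparison with DMSO. It lay at least 2-fold beyond both other D2 libraries for 36 of 1085 genes, 27 above and 9 below, whereas D2 replicates B and C did so for 17 and 18 genes and the other 48 libraries of the exposure in groups of 3 for 0 to 15 (median 5). Results that rest on that library are given with and without it. No marker of liver, intestine and pancreas, blood, muscle, neurons, retina or skin and bone was at 0 in all 7 libraries.

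At D2, 61 of 1589 genes passed the test against DMSO (edgeR, Benjamini-Hochberg adjusted p under 0.05), which is 3.84% of the genes tested. Of these, 41 rose (2.58%) and 20 fell (1.26%), and 252 genes had an unadjusted p under 0.05. The 3 D2 libraries did not overlap the 3 DMSO libraries for 52 of the 61, 36 above and 16 below, against 16.6% of all genes tested, 8.94% above and 7.68% below. Against all 18 DMSO plate controls of the series, every D2 library was above the range for 22 of the called genes and below it for 6, against 1.76% and 0.755% of all genes. The 61 were chosen for their values in these same D2 and DMSO libraries, so both comparisons are a description. With only the D2 and DMSO libraries fitted the count was 19, 15 higher and 4 lower, all of them among the 61. With the exposure plate as a replicate block the count was 92, 57 higher and 35 lower, and it included all 61. Without D2 replicate A it was 44, 30 higher and 14 lower, of which 32 were among the 61. Called genes with a mean of at least 20 counts, 60 in all, are the set described below, and the other called gene, cks2, a regulator of cyclin-dependent kinases, had 9.68, 10.4 and 28.4 CPM at D2 and 45.8, 48.4 and 29.0 CPM in DMSO.

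Genes that make and recycle glutathione had the highest median of the 29 gene lists. The lists were drawn up with earlier results of these data known, so this rank is a description. Of the 4 described here, 3 rose and 0 fell, against 2.58% of all genes tested that rose. The median log2 fold change was 1.22 over the list and 0.00 over all genes tested. The same share applies to the lists below, and a count of 1 riser in a list cannot be told from it. Without D2 replicate A, 2 of the 4 rose, with a median of 1.17, and with the plate as replicate block all 4 rose. The gene gclc, the catalytic subunit of glutamate-cysteine ligase and the first step of glutathione synthesis, had 297, 335 and 418 CPM at D2 in replicates A, B and C, against 127, 134 and 130.5 CPM in DMSO. Every D2 library exceeded every DMSO library, and also the highest of the 18 DMSO libraries of the series, 283 CPM. The median of those 18 was 189 CPM, and the lowest of them, 127 CPM, was DMSO replicate A of these plates. The log2 fold change was 1.42 ± 0.16 (SE; edgeR adjusted p = 6.16e-08), and the D1 library held 539.5 CPM.

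The glutathione reductase gene gsr, which turns oxidised glutathione back to the reduced form with NADPH, had 163, 216 and 217 CPM at D2 and 32.5, 70.9 and 50.7 CPM in DMSO. All D2 libraries were above all DMSO libraries, by 1.95 ± 0.25 on the log2 scale (edgeR adjusted p = 3.93e-07), and D1 held 287 CPM. The 18 DMSO libraries of the series had a median of 71.7 CPM and a highest value of 103 CPM. DMSO replicate A of these plates was the lowest of them. For gclc and gsr the call held when any 1 of the 6 libraries was left out.

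The cystine transporter slc7a11, which brings in the sulfur amino acid for glutathione, had 144, 64.5 and 121 CPM at D2 and 41.4, 53.2 and 68.1 CPM in DMSO. D2 replicate B lay within the DMSO range, so the groups overlapped. DMSO replicate A was the lowest of the 18 DMSO libraries of the series, whose median was 65.2 CPM. The log2 fold change was 1.02 ± 0.24, and the call was lost without D2 replicate A (0.80) and without DMSO replicate A (0.87). The D1 library stood at 476 CPM, above every D2 library. The modifier subunit gclm had 376, 389 and 299.7 CPM at D2 and 259.9, 245 and 258 CPM in DMSO; the groups did not overlap, but the log2 difference of 0.47 ± 0.15 missed the threshold (edgeR adjusted p = 0.064).

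**Figure D1:**
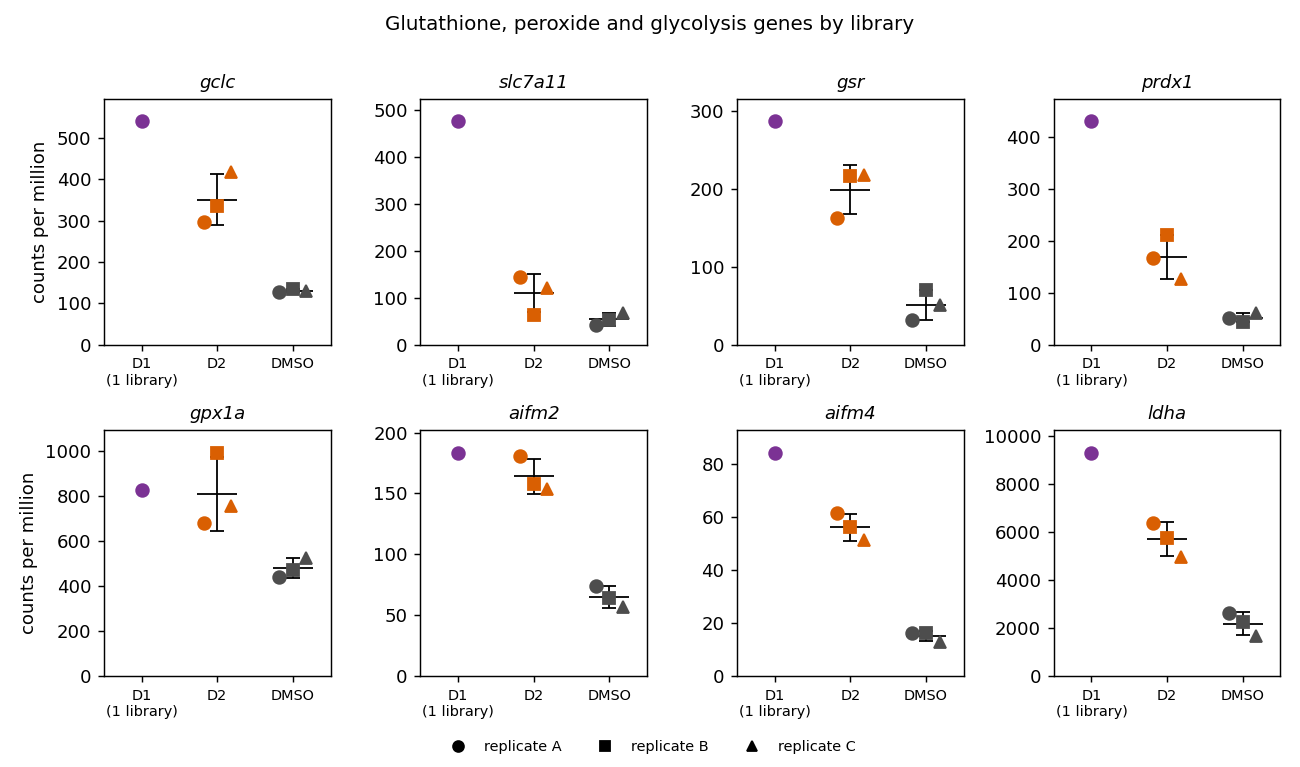
CPM of 8 genes of glutathione synthesis and recycling, peroxide and lipid peroxide reduction and glycolysis in the D1 library (purple), the 3 D2 libraries (orange) and the 3 DMSO libraries (grey); marker shapes are replicates, and the black line and bars are the mean and SD of 3 libraries. Only slc7a11 overlapped between D2 and DMSO, and D1 lay within the D2 range for gpx1a (826 CPM) and above it for the other 7.

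Among peroxiredoxins and related genes, 1 of 5 rose and 0 fell (median 0.47), against 2.58% of all genes tested that rose. The riser was prdx1, a peroxidase that removes hydrogen peroxide with thioredoxin, at 168, 212 and 128 CPM at D2 and 51.7, 43.5 and 60.9 CPM in DMSO. The groups were clear of each other, with a log2 fold change of 1.68 ± 0.25 (edgeR adjusted p = 1.27e-05), and D1 held 431 CPM. The mitochondrial prdx3 and the red cell form prdx2 had log2 differences of -0.11 ± 0.32 and -0.15 ± 0.12 and did not pass. The sestrins sesn2 and sesn1, which are stress-induced regulators of growth signalling, differed by 0.76 ± 0.26 and 0.47 ± 0.25 without passing.

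Of NRF2 and its partners, 2 of 5 rose and 0 fell (median 0.57), against 2.58% of all genes tested that rose. The gene nfe2l2b, named as a copy of the NRF2 gene, had 53.3, 62.4 and 61.1 CPM at D2 and 23.6, 21.0 and 31.9 CPM in DMSO. The groups did not overlap, the log2 fold change was 1.19 ± 0.28, and D1 held 133 CPM. With only the D2 and DMSO libraries fitted, or without replicate B or C of every group, nfe2l2b lost its call. Whether this copy acts as NRF2 does in mice was not tested. The small Maf gene maff had 495, 339 and 281 CPM at D2 and 230.4, 242 and 277 CPM in DMSO. D2 replicate C lay just above the highest DMSO library; the fold change of 0.57 ± 0.16 shrank to 0.32 without D2 replicate A, and the call was also lost without any 1 of the DMSO libraries (0.52 to 0.62). The sensor gene keap1b was near the lower limit of counting, at 16.1, 8.32 and 7.10 CPM at D2 and 10.3, 8.06 and 8.70 CPM in DMSO, and did not pass.

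The other antioxidant enzymes did not move as a group: 2 of 8 rose (2.58% of all genes tested), 0 fell, and the median was -0.03. The selenium-dependent glutathione peroxidase gpx1a had 679, 992 and 754 CPM at D2 and 442, 469 and 526 CPM in DMSO, a log2 fold change of 0.76 ± 0.13 with no overlap. With only the D2 and DMSO libraries fitted, or without replicate B of every group, gpx1a lost its call. The gene osgn1, named for oxidative stress induced growth inhibitor, had 102, 89.5 and 88.1 CPM at D2 and 44.3, 59.6 and 39.1 CPM in DMSO. It rose by 0.96 ± 0.23, and its call was lost without DMSO replicate C (0.81). The members that did not pass included textbook NRF2 targets of mammals. The quinone reductase nqo1 had 43.6, 72.8 and 99.4 CPM at D2 and 66.5, 113 and 88.4 CPM in DMSO (-0.31 ± 0.25), and the haem oxygenase hmox1a had 29.0, 2.08 and 14.2 CPM at D2 and 26.6, 21.0 and 18.8 CPM in DMSO (-0.49 ± 0.53). Both overlapped between the groups, as did sod2, the mitochondrial superoxide dismutase (-0.22 ± 0.24). The extracellular form sod3b was clear of DMSO, at 33.9, 39.5 and 32.7 CPM against 14.8, 12.9 and 20.3 CPM, but missed the threshold (1.12 ± 0.36, edgeR adjusted p = 0.07).

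The 2 tested relatives of apoptosis-inducing factor both rose at D2. The gene aifm2, which in mammals encodes a coenzyme Q oxidoreductase that protects lipids from peroxidation, had 181, 158 and 153 CPM at D2 and 73.8, 64.5 and 56.5 CPM in DMSO. The gene aifm4 had 61.3, 56.2 and 51.1 CPM at D2 and 16.2, 16.1 and 13.0 CPM in DMSO. The 3 D2 libraries of both genes were close to each other and above all 18 DMSO libraries of the series. The log2 fold changes were 1.33 ± 0.22 and 1.87 ± 0.38 (edgeR adjusted p = 5.20e-05 and 9.09e-04), and D1 held 184 and 84.3 CPM.

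In the list of xenobiotic metabolism and UDP-sugar supply, 2 of 5 tested probes rose, both of them for ugdh, the dehydrogenase that makes UDP-glucuronic acid for glucuronidation. The first ugdh probe had 1327, 1261 and 1384 CPM at D2 and 511, 683 and 749.6 CPM in DMSO (1.03 ± 0.17). The second had 2185, 2124 and 2041 CPM at D2 and 1049, 1269 and 1349.8 CPM in DMSO (0.79 ± 0.14). The probes target 1 gene and gave the same picture, with D2 clear of DMSO and D1 at 1120.3 and 1793 CPM, below the D2 libraries. Of the xenobiotic receptors, 1 of 3 rose, against 2.58% of all genes tested. This was ahrra, the aryl hydrocarbon receptor repressor and itself a target of that receptor. It had 245, 249.7 and 190.4 CPM at D2 and 81.2, 108 and 106 CPM in DMSO (1.21 ± 0.25). The receptor ahr2 had 629, 539 and 579.6 CPM at D2 and 490.4, 437 and 518 CPM in DMSO and did not pass (0.27 ± 0.12).

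Of the unfolded protein response list, 1 of 11 rose and 0 fell (median 0.42), against 2.58% of all genes tested that rose. The riser had the steepest change that did not rest on 1 library. This was ero1a, which passes oxidising equivalents to protein disulfide isomerase in the endoplasmic reticulum, with 139, 77.0 and 55.4 CPM at D2 and 10.3, 17.7 and 4.35 CPM in DMSO. The lowest D2 library was above the highest of the 18 DMSO libraries, 20.4 CPM. The log2 fold change was 3.06 ± 0.57 (edgeR adjusted p = 3.42e-04) and 2.61 without D2 replicate A, and D1 held 320.3 CPM. The chaperone hspa5 and the transcription factor xbp1, both standard markers of that response, overlapped between the groups (0.60 ± 0.26 and 0.42 ± 0.21).

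Of 8 heat shock genes, 3 rose and 0 fell (median 0.36), against 2.58% of all genes tested that rose, and 1 rose without D2 replicate A. The co-chaperone bag3 had 87.1, 41.6 and 56.8 CPM at D2 and 26.6, 19.3 and 13.0 CPM in DMSO (1.65 ± 0.35), and its call held without any 1 library. With only the D2 and DMSO libraries fitted, or without replicate C of every group, bag3 lost its call. Its D2 replicates B and C lay within the 13.0 to 59.7 CPM (median 35.8) of the 18 DMSO libraries of the series. The inducible chaperone hsp70.3 had 88.8, 66.6 and 54.0 CPM at D2 and 38.4, 35.5 and 24.6 CPM in DMSO. All D2 libraries exceeded all 18 DMSO libraries of the series, but the change of 1.07 ± 0.31 lost its call without D2 replicate A or B or DMSO replicate B or C (0.87 to 1.14). The small heat shock gene hspb8 had 1210.3, 826 and 763 CPM at D2 and 673, 682 and 692 CPM in DMSO. Its change of 0.45 ± 0.12 fell to 0.23 without D2 replicate A, and the call also needed each DMSO library (0.42 to 0.46 without 1 of them). The constitutive hspa8 was not among the genes that passed (-0.27 ± 0.14).

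Of 20 glycolysis and glycogen genes, 4 rose and 0 fell, against 2.58% of all genes tested that rose, and the median was 0.36. Lactate dehydrogenase ldha, which turns pyruvate into lactate, had 6386, 5755 and 4970.5 CPM at D2 and 2641, 2247 and 1667 CPM in DMSO. The groups were far apart, with a log2 fold change of 1.38 ± 0.18 (edgeR adjusted p = 1.02e-06), and D1 held 9303 CPM. The aldolase aldoaa had 2684, 2424 and 2485 CPM at D2 and 1518, 1256 and 661 CPM in DMSO (1.13 ± 0.24), and its call was lost without DMSO replicate C (0.83), the lowest control. The isomerase gpia rose by 0.94 ± 0.19 and held its call without any 1 library, but lost it without replicate A or B of every group. The liver glycogen phosphorylase pygl rose by 0.77 ± 0.20, and lost its call without D2 replicate B or DMSO replicate B (0.65 in both). Without D2 replicate A the list still had 4 risers. The hypoxia list had 1 riser of 11, a count that cannot be told from the share of all genes, and a median of 0.27. At an unadjusted p under 0.05 (edgeR) the lists were alike, with 4 of 11 hypoxia genes and 7 of 20 glycolysis and glycogen genes. Over all genes tested it was 252 of 1589, and these counts take in both directions. The angiogenic ligand vegfab had 436, 310.0 and 267 CPM at D2 and 266, 166 and 158 CPM in DMSO (0.77 ± 0.18), and the call was lost without D2 replicate A (0.55), DMSO replicate B (0.67) or DMSO replicate C (0.60). The hypoxia marker ndrg1a had 1368, 553 and 430.4 CPM at D2 and 458, 564 and 387 CPM in DMSO, so that D2 replicate A alone stood above the controls.

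Of 6 liver and plasma protein markers, 3 rose, all of them clotting factors, and 0 fell, against 2.58% of all genes tested that rose. The plasma protein gene gc, which is not on this list, fell at D2 (-0.81 ± 0.22). The fibrinogen chains fgb and fgg had 6457, 4411 and 3968 CPM and 491, 418 and 415 CPM at D2, against 3385, 2816 and 2459 CPM and 244, 282 and 259.5 CPM in DMSO. Both were clear of the controls, by 0.77 ± 0.18 and 0.75 ± 0.15 on the log2 scale. The factor V gene f5 rose by 1.08 ± 0.30. The calls of fgb and f5 were lost without D2 replicate A (0.55 and 0.87) or DMSO replicate C (0.64 and 0.75), and fgg was the marker that kept its call. The summed level of the 6 markers was 107408 to 147110 CPM at D2 and 110557 to 122102 CPM in DMSO, and was dominated by the apolipoprotein apoa2, which did not pass (0.10 ± 0.17).

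The other risers had no list in common. Monoamine oxidase mao, which breaks down amine transmitters, was the most even of them, at 178, 183 and 186 CPM at D2 and 81.2, 80.6 and 100.04 CPM in DMSO (1.06 ± 0.20). The uncharacterised gene si:dkey-219e21.2 rose by 0.92 ± 0.17. Both calls held without any 1 library. The lipid droplet protein plin2 had 821, 468 and 166 CPM at D2 and 171, 164 and 252 CPM in DMSO; D2 replicate C lay within the DMSO range, and the change of 1.31 ± 0.28 became 0.69 without D2 replicate A. The growth arrest gene gadd45aa rose by 0.77 ± 0.21, and its call was lost without D2 replicate A (0.50), DMSO replicate A (0.64) or DMSO replicate B (0.72). The amino acid transporter slc1a5 (1.14 ± 0.34) and the arginine and lysine transporter slc7a3a (0.75 ± 0.21) both lost their calls without D2 replicate A or any 1 DMSO library (0.80 to 1.34 and 0.20 to 0.80). The remaining 7, zgc:163022, ddr2l, fbxo22, pik3c2a, uevld, pcbd1 and the ribosomal protein rpl8, had log2 fold changes from 0.41 to 1.23, and each lost its call without at least 3 of the 6 libraries. Leaving out D2 replicate A, the calls of ddr2l (1.04, and 0.59 without it), pik3c2a (0.79 and 0.54) and uevld (0.65 and 0.54) were lost and the other 4 held.

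**Figure D2:**
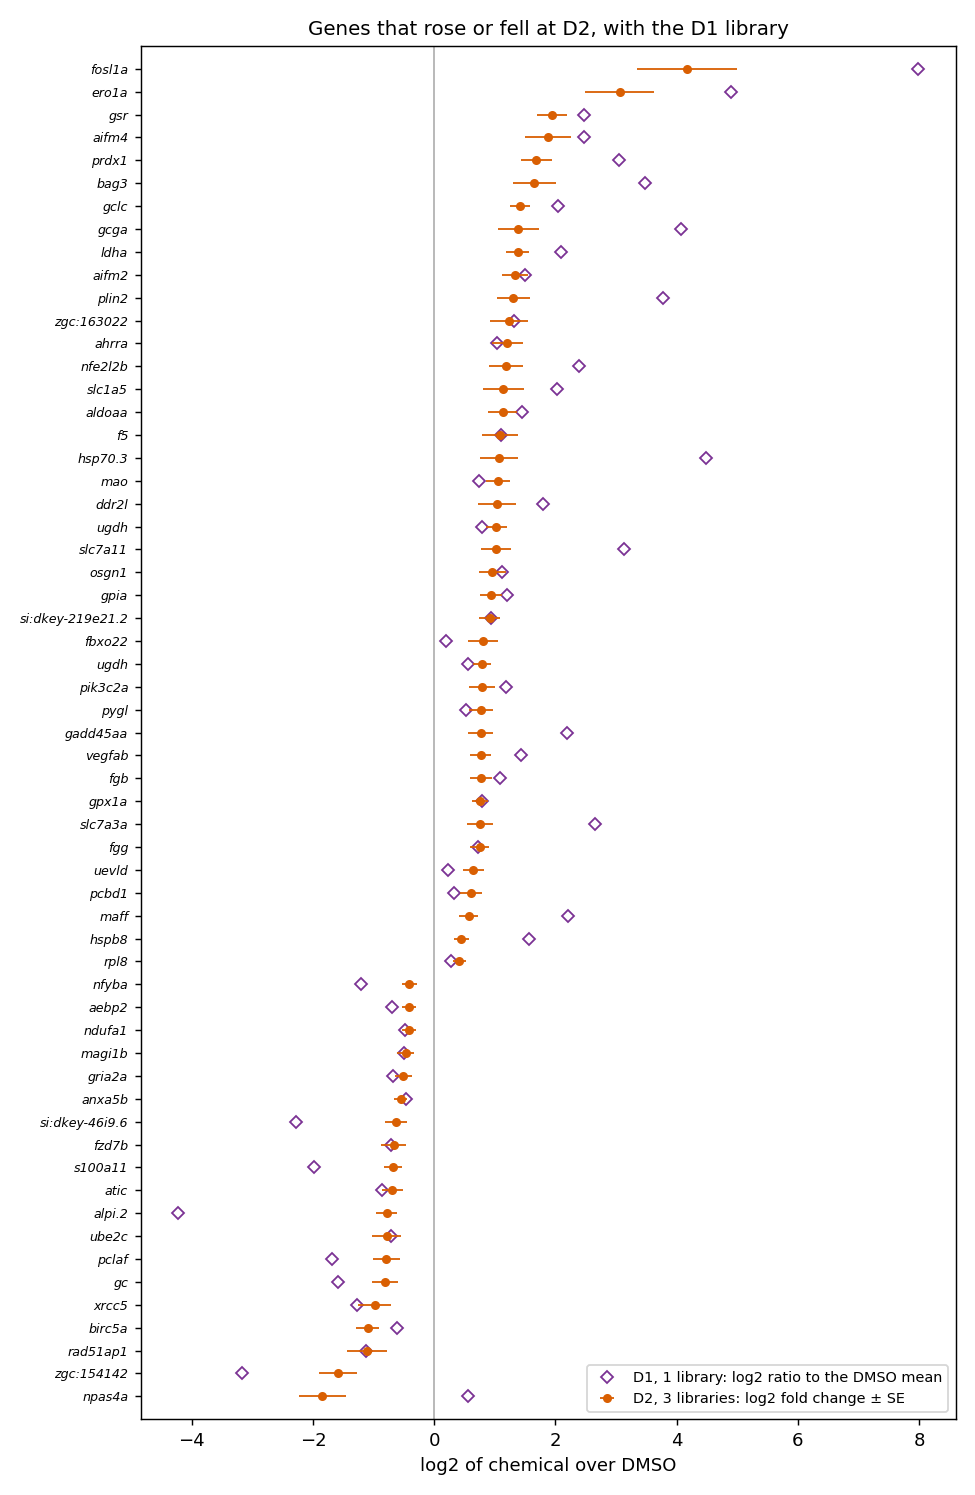
Fitted log2 fold change at D2 against DMSO with its SE (orange, 3 libraries a side) for 59 of the 60 genes that passed the test with a mean of at least 20 counts, and the log2 ratio of the single D1 library to the DMSO mean (purple, no test); ugdh has a pair of probes. The D2 changes run from 4.17 for fosl1a to -1.85 for npas4a, the only one of them whose D1 value lies on the other side of 0.

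Of the genes that fell, npas4a changed most. This neuronal transcription factor, which is switched on by activity, had 17.8, 8.32 and 17.0 CPM at D2 and 53.2, 54.8 and 52.2 CPM in DMSO. All D2 libraries were below all 18 DMSO libraries of the series, of which the lowest held 29.9 CPM. The log2 fold change was -1.85 ± 0.39 (edgeR adjusted p = 0.0015), whereas the D1 library held 78.7 CPM, above its own controls. That D1 value lay within the range of the 18 DMSO libraries, of which the highest held 93.4 CPM. In the list of neuron, synapse and glia markers, 1 of 20 rose (mao) and 1 fell, the glutamate receptor subunit gria2a (-0.51 ± 0.14), and the median was 0.00. The call of gria2a was lost without D2 replicate C (-0.43) or any 1 DMSO library (-0.48 to -0.54). The gene zgc:154142 had 29.0, 12.5 and 39.8 CPM at D2 and 94.5, 82.2 and 75.4 CPM in DMSO (-1.58 ± 0.31), and 5 counts, 9.37 CPM, at D1.

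In the cell cycle list 4 of the 50 genes tested fell and none rose, against 1.26% of all genes tested that fell, with a median log2 difference of -0.46 over the list and 0.00 over all genes tested. Survivin, birc5a, an inhibitor of apoptosis that works in chromosome segregation, had 64.6, 85.3 and 86.7 CPM at D2 and 123, 168 and 215 CPM in DMSO (-1.10 ± 0.20). It kept its call without any 1 library. The PCNA partner pclaf had 195, 366 and 311 CPM at D2 and 377, 583 and 541 CPM in DMSO (-0.79 ± 0.23), and the mitotic ubiquitin conjugase ube2c fell by 0.78 ± 0.24; cks2 was the other. The call of cks2 was lost without D2 replicate A (-0.99 against -1.28), D2 replicate B, DMSO replicate A or DMSO replicate B. Those of pclaf and ube2c were lost without D2 replicate A or C or DMSO replicate B or C (-0.56 to -0.83 and -0.62 to -0.71). Without D2 replicate A, 1 of 49 fell and the median was -0.29, and with the plate as replicate block 7 of 50 fell. For none of the 4 were all D2 libraries below the 18 DMSO libraries of the series. The medians of those 18 were 123 CPM for birc5a, 427 for pclaf, 270 for ube2c and 28.9 for cks2. For birc5a, ube2c and cks2 the highest of the 18, 215, 448 and 48.4 CPM, was a control of these plates. The DNA repair genes rad51ap1 (-1.10 ± 0.33) and xrcc5 (-0.98 ± 0.27), which act in homologous recombination and end joining, overlapped between the groups, and both calls were lost without D2 replicate A (-0.87 and -0.94), DMSO replicate B or DMSO replicate C (-0.96 and -0.76 without the last). That of rad51ap1 was also lost without D2 replicate C (-1.04) and that of xrcc5 without D2 replicate B (-0.92). The D2 libraries of both also overlapped the 18 DMSO libraries of the series, with medians of 38.3 and 69.6 CPM. The highest of those 18, 75.4 and 161 CPM, was DMSO replicate C of these plates for both genes.

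Among intestine and exocrine pancreas markers, 1 of 8 fell and 1 rose, against 1.26% and 2.58% of all genes tested. The intestinal alkaline phosphatase alpi.2 had 752, 685 and 715 CPM at D2 and 1282, 1096 and 1306 CPM in DMSO. The D2 libraries were below all 18 DMSO libraries of the series, the change was -0.78 ± 0.17, and D1 held 65.6 CPM. The list member that rose was gcga, the precursor of the hormone glucagon and not a digestive enzyme. It had 197, 35.4 and 44.0 CPM at D2 and 31.0, 35.5 and 39.1 CPM in DMSO. Its change of 1.39 ± 0.34 rested on D2 replicate A and was 0.19 without it. The trypsin-like prss59.1 had 8587, 6787 and 8732 CPM at D2 and 9187, 10013 and 12223 CPM in DMSO, and the amylase amy2a had 2501, 1621 and 3462 CPM and 3898, 3622 and 3377 CPM; neither passed. The summed level of the 8 markers was 9904 to 13480 CPM at D2, 6733 CPM at D1 and 15161 to 17913 CPM in DMSO; the part of this in the lower alpi.2 was not tested.

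The other genes that fell were small in change. The calcium-binding s100a11 (-0.68 ± 0.14) and the phospholipid-binding annexin anxa5b (-0.55 ± 0.11) kept their calls without any 1 library. With only the D2 and DMSO libraries fitted both calls were lost. Without replicate A of every group s100a11 also lost its call, as did anxa5b without replicate B. The vitamin D binding protein gc had 93.6, 62.4 and 131 CPM at D2 and 199, 159.6 and 149 CPM in DMSO (-0.81 ± 0.22), and its call was lost without D2 replicate A or B or DMSO replicate A (-0.77, -0.64 and -0.67). The purine synthesis enzyme atic fell by 0.69 ± 0.17, and by 0.61 without D2 replicate A, where the call was lost. The other 6, si:dkey-46i9.6, the Wnt receptor fzd7b, the complex I subunit ndufa1, the junction scaffold magi1b, aebp2 and nfyba, had log2 fold changes from -0.67 to -0.41, and each lost its call without at least 3 of the 6 libraries, D2 replicate A among them (-0.63 to -0.35 without it).

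Lists with no gene past the threshold at D2 included cytokine signalling and inflammation (0 of 16), skin, cartilage and bone markers (0 of 24), blood markers (0 of 7), fatty acid oxidation and peroxisome (0 of 15), the glucocorticoid and clock list (0 of 10), gluconeogenesis and amino acid catabolism (0 of 6) and retina markers (0 of 3). In that order, 4, 2, 1, 3, 3, 0 and 1 of their genes had an unadjusted p under 0.05, against 252 of all 1589 genes tested. By the same edgeR test, 1 of 35 ribosomal protein genes rose and 1 of 18 proteasome and ubiquitin genes fell (ube2c). Over all genes tested 3.84% were called, and in lists this small none of these counts can be told from that share. The embryonic haemoglobin gene hbae5 split the D2 libraries, at 103, 559.7 and 479 CPM in replicates A, B and C against 157, 148 and 44.9 CPM in DMSO. Replicates B and C were above all 18 DMSO libraries of the series (highest 157 CPM) while replicate A and D1 (93.7 CPM) were within their range. The gene passed only without replicate A, at a log2 fold change of 2.16 (edgeR adjusted p = 0.0473).

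**Figure D3:**
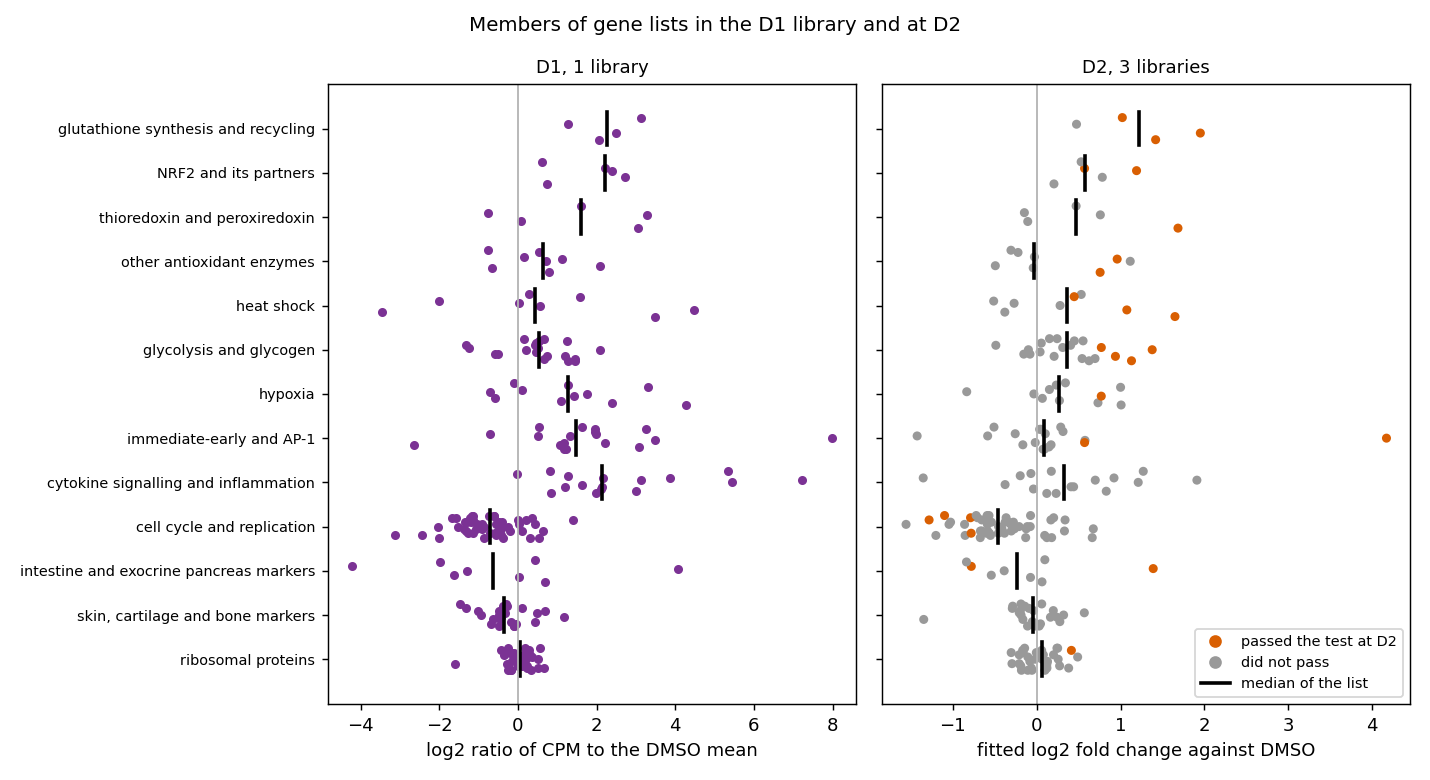
Members of 13 gene lists, each point 1 probe: left, log2 ratio of the D1 library to the DMSO mean; right, fitted log2 fold change at D2, orange where the test was passed; the black lines are list medians. At D2 the glutathione list has the highest median (1.22) and the cell cycle list the lowest (-0.46), while in D1 the immediate-early and inflammation lists reach past 7 on the log2 scale. The lists were drawn up with earlier results of these data known, so their order is a description.

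Immediate-early and inflammation genes separated D2 replicate A from replicates B and C. The AP-1 gene fosl1a had 240.5, 2.08 and 9.94 CPM in D2 replicates A, B and C, against 4.43, 6.45 and 2.90 CPM in DMSO. Its fitted change of 4.17 ± 0.82 passed the test, but replicate B lay below every DMSO library and the change without replicate A was 0.53 (edgeR adjusted p = 0.849). The cytokine gene il1b had 35.5, 2.08 and 2.84 CPM at D2 and 7.38, 0 and 2.90 CPM in DMSO, and the collagenase mmp9 had 208, 27.0 and 41.2 CPM and 45.8, 48.4 and 26.1 CPM. Both were high in D2 replicate A alone and did not pass (1.91 ± 0.83 and 1.21 ± 0.52). The same held for cebpb, a transcription factor of the acute phase, at 1291, 279 and 183 CPM against 319, 269 and 333 CPM. The adaptor myd88 of Toll-like receptors had 176, 52.0 and 68.2 CPM at D2 and 56.1, 46.7 and 63.8 CPM in DMSO.

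For several genes of AP-1 and MAP kinase signalling, D2 replicates B and C were at or under the controls. The AP-1 gene fosab had 1060.2 CPM in replicate A but 97.8 and 135 CPM in replicates B and C, against 346, 308 and 610.4 CPM in DMSO. The phosphatase dusp1, which ends MAP kinase signalling, had 2133, 587 and 549.7 CPM at D2 and 914, 974 and 1145 CPM in DMSO, and junba had 194, 41.6 and 62.5 CPM and 75.3, 61.2 and 63.8 CPM. Replicates B and C were therefore below all DMSO libraries for fosab and dusp1. Of the immediate-early list, 2 of 18 rose at D2 (fosl1a and maff) and 0 fell, with a median of 0.08. Without replicate A, 0 rose and 3 fell, with a median of -0.35. These 3 were fosab (-1.83), per1a (-1.08) and dusp1 (-0.82). The activity-induced npas4a is not on that list, and it fell both with replicate A (-1.85) and without it (-1.99). The genes fosab, dusp1, junba and hbae5 are named because their values set libraries apart, and were chosen after those values were seen. Larvae that died were not in the pools, and the number in each pool was not given in the sources used here.

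**Figure D4:**
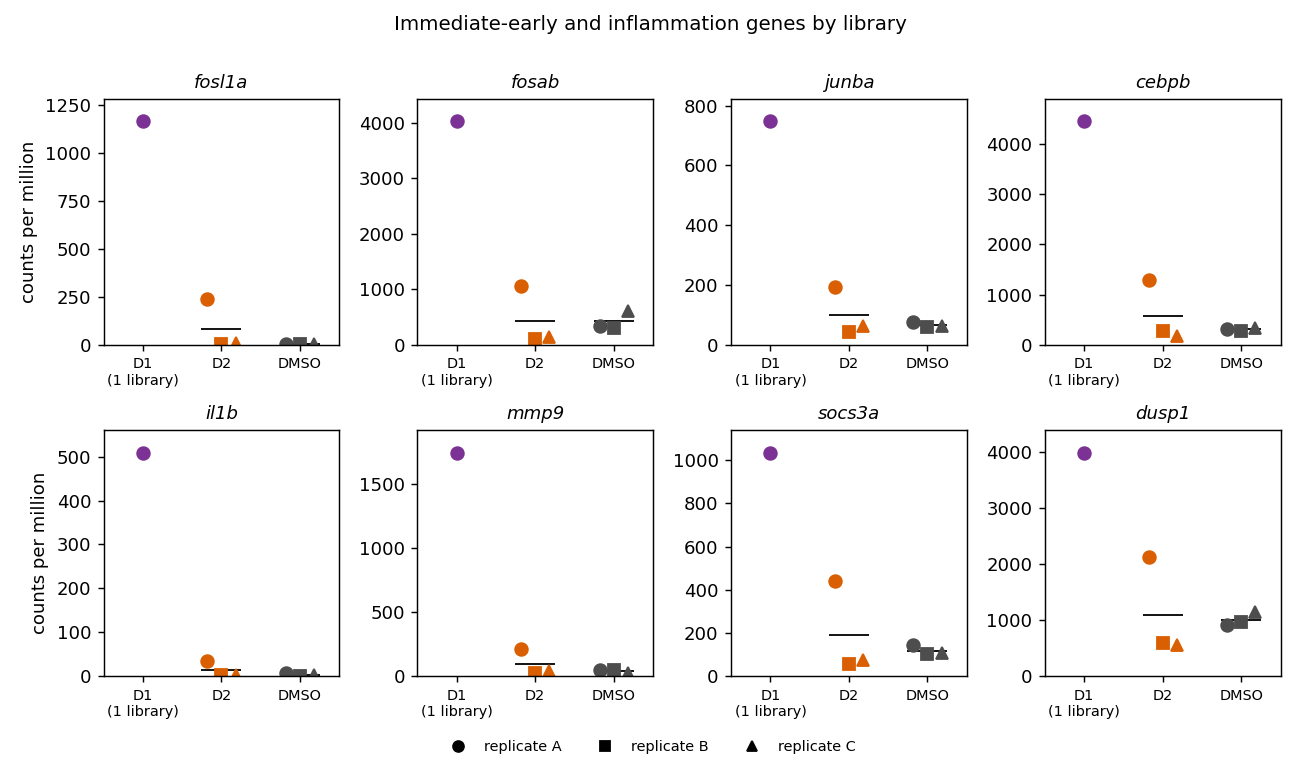
CPM of 8 immediate-early and inflammation genes in the D1 library (purple), the 3 D2 libraries (orange) and the 3 DMSO libraries (grey), with marker shapes for replicates and black lines for means of 3 libraries. D1 is the highest of the 7 libraries for all 8 genes and D2 replicate A the next, while D2 replicates B and C lie near or under the DMSO libraries.

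The D1 library differed from DMSO more widely than any D2 library. Of 1588 probes with a ratio to the DMSO mean, 405 were past 2-fold (25.5%), 224 above (14.1%) and 181 below (11.4%), and at 4-fold 66 were above (4.16%) and 34 below (2.14%). The D2 replicates A, B and C had 235, 164 and 155 probes past 2-fold. The 45 other treated libraries of the exposure, caffeine controls included, had 70 to 127 (median 93). Each DMSO library against the other pair had 109 to 126. There was 1 D1 library, so these ratios have no replicate check and no test, and the intervals given with them cover the counting error of D1 only. Against DMSO replicate A of the same plate alone, 431 probes were past 2-fold, 280 above and 151 below.

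The 4 highest ratios of the D1 library were those of immediate-early and inflammation genes. The gene fosl1a stood at 1167 CPM, 254 times the DMSO mean (95% Poisson interval 235 to 275), and il1b at 509.6 CPM, 149 times (131 to 167). The collagenase mmp9 held 1744 CPM, 43.5 times the mean, and the interleukin il11a 435 CPM, 40.8 times. In the highest of the 18 DMSO libraries of the series these genes held 24.0, 31.2, 389 and 31.2 CPM. Of the inflammation list, 13 of 16 were past 2-fold above DMSO and 0 below, and of the immediate-early list 14 of 18 above and 1 below. Over all probes, 14.1% were past 2-fold above and 11.4% below. The medians of these lists were 2.13 and 1.48 on the log2 scale, against 0.03 over all probes. In the hypoxia list 7 of 11 were above and 0 below, with a median of 1.28, among them the glucose transporter slc2a1b at 262 CPM, 9.87 times the mean.

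The highest ratios also included ero1a (29.6), the metalloprotease adam8a (24.1), hsp70.3 (22.4), the glucose transporter slc2a3b (18.9), gcga (16.9), cebpb (14.5) and plin2 (13.8). Heat shock genes parted ways at D1: hsp70.3 held 734 CPM and bag3 219 CPM, 11.1 times the mean, while the small heat shock gene hspb1 had 3 counts, a ratio of 0.0918 (0.0189 to 0.268). That gene varied from 0 to 101 CPM over the 18 DMSO libraries of the series, so its 5.62 CPM in D1 lay within the range of the controls. The glutathione genes were all past 2-fold above DMSO, 4 of 4 against 14.1% of all probes, with ratios of 2.42 for gclm to 8.77 for slc7a11. The haem oxygenase hmox1a, which did not pass at D2, stood at 93.7 CPM in D1, 4.23 times the DMSO mean, whereas nqo1 was at 52.5 CPM, 0.588 times.

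At the low end of D1 stood alpi.2, with a ratio of 0.0534 (0.0372 to 0.0743). The glucocorticoid-responsive immunophilin fkbp5 had 7 counts (ratio 0.107), zgc:154142 had 5 (0.111), the mitochondrial carrier slc25a14 had 4 (0.135) and the immunophilin fkbp14 had 11 (0.142). Of these, slc25a14, at 7.49 CPM in D1, lay within the 5.42 to 78.0 CPM of the 18 DMSO libraries. Cell division genes filled several of the other places. The helicase hells had 2 counts, a ratio of 0.121 (0.0146 to 0.436), the kinetochore gene cenpk had 5 (0.192) and the inhibitor of mitotic ubiquitination fbxo5 had 4 (0.212). Cyclin ccnb2 had 0 counts in D1, which at a floor of 3 counts in that library is at least 5.47-fold lower than the DMSO mean. The last of the 12 lowest were si:dkey-46i9.6 (0.206) and hnf4a, a master regulator of liver and gut genes (0.226).

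Over all probes, 11.4% were past 2-fold below DMSO in D1 and 14.1% above. Of the cell cycle list, 20 of 50 probes were past 2-fold below DMSO in D1 and 1 above. Of the blood markers 5 of 7 were below and 0 above, and of the intestine and exocrine pancreas markers 4 of 8 were below and 1 above. The summed level of the 53 cell cycle probes on the panel was 2735 CPM in D1, 3107 to 4540 CPM at D2 and 4611 to 5878 CPM in DMSO. For the 8 blood probes on the panel it was 356 CPM in D1, 610.0 to 1088 CPM at D2 and 613 to 754 CPM in DMSO. Other cell type sums of D1 were also below DMSO, except muscle and heart (939 CPM against 622 to 1320 CPM). Liver and plasma protein markers summed to 78955 CPM in D1, against 110557 to 122102 CPM in DMSO. For skin, cartilage and bone markers it was 50113 CPM against 66018 to 70847 CPM. Neuron, synapse and glia markers held 4105 CPM against 4571 to 5462 CPM, and retina markers 927 CPM against 1151 to 1353 CPM. Fewer such cells and less of their RNA cannot be told apart, and these sums are shares of a total in which other genes were high. The 35 ribosomal protein probes summed to 447067 CPM in D1, 432758 to 451710 CPM at D2 and 449589 to 457724 CPM in DMSO.

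Set side by side over the called genes, D1 and D2 share the DMSO libraries, so their values are not independent. Of the 41 genes that rose at D2, D1 lay above all 3 D2 libraries for 25, within their range for 11 and below it for 5. Of the 20 that fell, D1 lay below all D2 libraries for 12, within their range for 6 and above it for 2, npas4a and birc5a. At D1, 30 of the 41 were past 2-fold above DMSO and 10 of the 20 past 2-fold below, against 14.1% and 11.4% of all probes. Among those below D2 in D1 were mao (146 CPM) and both ugdh probes.

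The codes next to D2 give a frame for these levels. In D1, D2, D3 to D8 and DMSO, in that order, gclc averaged 539.5, 349.9, 202, 171, 145, 141, 145, 119 and 130.4 CPM. The average of gsr in the same order was 287, 199, 111, 71.3, 61.1, 63.7, 59.3, 54.3 and 51.4 CPM, and that of ero1a was 320.3, 90.4, 32.5, 11.3, 10.2, 12.3, 9.88, 10.9 and 10.8 CPM. The intestinal alpi.2 averaged 65.6, 717, 899, 1240.0, 1207, 1115, 1090.4, 1045 and 1228 CPM. In all 4, the mean of D3 lay between those of D2 and D4. The D3 libraries of alpi.2 had 547, 951 and 1198 CPM, so D3 replicate A was below every D2 library. In the test against D3 given below, gclc passed, and gsr, ero1a and alpi.2 did not (edgeR adjusted p = 0.085, 0.127 and 0.282). Of the 60 called genes with a mean of at least 20 counts, 7 passed that test. For 18 of the 41 rising genes every D2 library was above all 18 libraries of D3 to D8, against 1.76% of all genes tested, and for 5 of the 19 falling ones every D2 library was below them, against 1.01%. These genes were chosen for their difference from DMSO at D2, so that count is a description.

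Tested directly against D3, with no DMSO library in the contrast, D2 differed for 8 of 1589 genes (0.503%, edgeR adjusted p under 0.05), and 232 had an unadjusted p under 0.05. Of these, gclc had 297, 335 and 418 CPM at D2 and 183, 201 and 222 CPM at D3 (0.72 ± 0.16). Its libraries did not overlap between the codes. Also higher at D2 were fosl1a, gcga and plin2, the genes that rest on D2 replicate A. Lower at D2 were aebp2 (-0.48 ± 0.11), fzd7b (-0.87 ± 0.20) and exosc8, a subunit of the RNA exosome, with 118, 95.7 and 126 CPM at D2 and 163, 190.4 and 169 CPM at D3. Without D2 replicate A 3 genes passed, 2 of them among the 8. The call of gclc held (0.84), and those of fosl1a (0.57), gcga (0.35), plin2 (0.54), aebp2 (-0.42), fzd7b (-0.77) and exosc8 (-0.70) were lost. The count was 25 with the plate as replicate block, all 8 included.

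Metribuzin-DA, a breakdown product of the herbicide metribuzin, was tested on the same plates. Its D2 libraries give a comparison with no DMSO library on either side, though the DMSO libraries enter the estimate of the spread. The chemicals differed at D2 for 59 of 1589 genes (3.71%), 45 higher and 14 lower in 2-tert-butyl-4-methoxyphenol. Among these 59 were 38 of the 60 called genes with a mean of at least 20 counts. Those 60 were chosen for their values in the same D2 libraries, so this overlap is a description. The count of 59 became 47 without D2 replicate A, 27 higher and 20 lower, of which 32 were among the 59. Without replicate A of every group it was 50, 24 higher and 26 lower. Lactate dehydrogenase ldha had 6386, 5755 and 4970.5 CPM in 2-tert-butyl-4-methoxyphenol and 2398, 1922 and 1947 CPM in metribuzin-DA (1.49 ± 0.19). For gsr the values were 163, 216 and 217 CPM and 58.4, 75.3 and 84.6 CPM (1.48 ± 0.24), and for alpi.2 752, 685 and 715 CPM and 1169, 1229.5 and 1187 CPM (-0.70 ± 0.17). None of the 3 overlapped between the chemicals. Genes called here but not against DMSO included hbae5, with 103, 559.7 and 479 CPM in 2-tert-butyl-4-methoxyphenol and 72.6, 13.4 and 14.5 CPM in metribuzin-DA (3.51 ± 0.72), and the proteasome activator psme2, with 16.1, 16.6 and 22.7 CPM and 42.7, 45.2 and 34.4 CPM (-1.08 ± 0.32). The call of psme2 was lost without D2 replicate A (-0.97). The acute phase gene saa, also lower, rested on 1 metribuzin-DA library at 211 CPM.

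3,4-Dichlorophenyl isocyanate was tested on other plates with their own DMSO libraries, so the change at D2 can be compared between the chemicals without shared controls. The change differed for 9 of 1616 genes (0.557%, edgeR adjusted p under 0.05), with 191 at an unadjusted p under 0.05. It was larger in 2-tert-butyl-4-methoxyphenol for gsr (difference 1.75 ± 0.35), gclc (1.34 ± 0.26), ldha (1.36 ± 0.25) and gpia (1.07 ± 0.26). In 3,4-dichlorophenyl isocyanate the D2 libraries of gclc had 284, 240.2 and 308 CPM and their DMSO libraries 283, 181 and 267 CPM, a change of 0.08 ± 0.18. The DMSO libraries of gclc were thus higher there than the 127 to 134 CPM of the plates described here. Lower in 2-tert-butyl-4-methoxyphenol were ahrra (difference -4.08 ± 0.32), the growth factor fgf7 (-4.10 ± 0.91), ahr2 (-1.03 ± 0.15), npas4a (-2.31 ± 0.56) and zgc:154142 (-2.04 ± 0.47). For ahrra, 3,4-dichlorophenyl isocyanate at D2 reached 2870, 3168 and 3029 CPM against 68.0, 63.9 and 82.5 CPM in its DMSO, a change of 5.29 ± 0.23, while 2-tert-butyl-4-methoxyphenol had 245, 249.7 and 190.4 CPM against 81.2, 108 and 106 CPM. The count was 34 with the plate as replicate block, all 9 included. Without D2 replicate A it was 13, of which 8 were among the 9, and the call of gpia was lost (0.94, edgeR adjusted p = 0.0574).

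**Figure D5:**
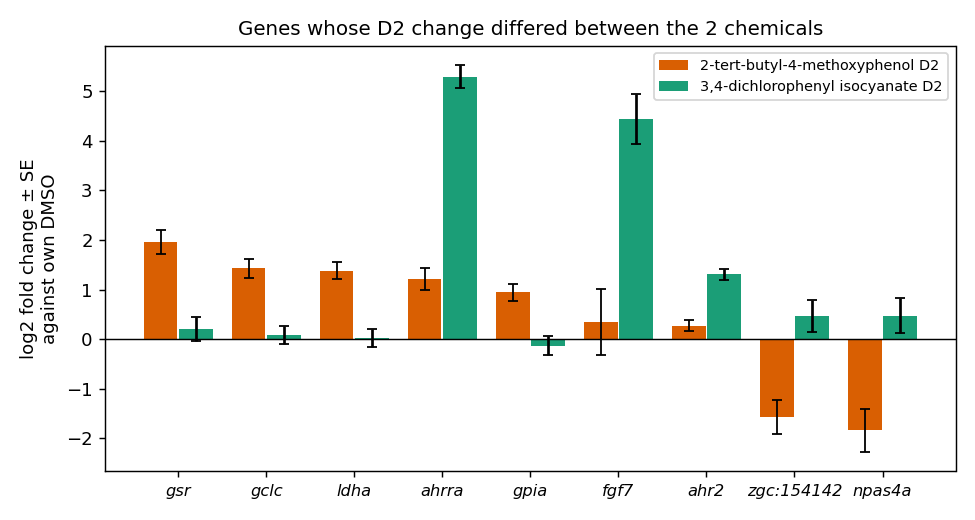
Log2 fold change at D2 against the DMSO libraries of the same plates for 2-tert-butyl-4-methoxyphenol (orange) and 3,4-dichlorophenyl isocyanate (green), with SE bars and 3 libraries a group, for the 9 genes whose change differed between the chemicals. The bars of gsr, gclc, ldha and gpia are high for 2-tert-butyl-4-methoxyphenol only, and those of ahrra, fgf7 and ahr2 are higher for 3,4-dichlorophenyl isocyanate.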

How the data were processed

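The table the authors deposited gives, per the file headers and its whole-number values, unnormalized counts for each probe and library. The submitters' processing notes name bcl2fastq; aligner, probe sequences and genome build were not given in the sources used here. No sequence or coordinate is printed. Columns were matched to samples by their descriptions, and 0 value columns had no sample. The quasi-likelihood test of edgeR 4.0.16, run in R 4.3.3 with limma 3.58.1, followed TMM normalization, with filterByExpr at a minimum count of 10, a mean per group over all 52 libraries of the exposure (106 for 2 exposures) and Benjamini-Hochberg adjustment at 0.05 over all genes of a contrast. DESeq2 1.42.0 was an alternative. The code was tested on simulated data. CPM used library totals, and SE is the absolute log2 fold change over the square root of F. Named genes are those called at D2 with a mean of at least 20 counts, the called and up to 4 other members of each of 29 lists, the 12 highest and 12 lowest D1 ratios, and the 5 largest changes each way of the other contrasts. Members and lists were chosen with earlier results of these data known. Other members of a list are named for their role. A few genes that the rule names are not reported here. Plate letters pair the libraries, since the labels' protocols give 1 pool per treatment and plate; deviations of D2 and DMSO libraries of the same letter correlated at 0.065, 0.067 and 0.008 across genes. No libraries were alike within sampling noise (chi-square per degree of freedom of at least 4.15). Near-identical gene copies may share a probe. PCR reads without molecular identifiers are not independent molecules, so intervals and floors cover counting error only.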

Additional observations from a re-analysis of the deposited data

How the results depend on the processing

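No named gene reversed its direction in the 16 alternatives, and 18 of the 60 kept their call in each alternative that tested them, 14 of them higher and 4 lower. The count of 61 genes at D2 against DMSO was 92 with the replicate block and ranged from 33 to 76 without 1 replicate. It was 19 when only the groups of the contrast were fitted. There fewer libraries estimate the spread. The D2 libraries, which stood further apart by the 2-fold count than those of other groups, make up a larger share of them. DESeq2 called 75, 60 of them shared. The count of 59 against metribuzin-DA was 17 with only its groups, and 22 to 50 without 1 replicate. The count of 8 against D3 was 21 with DESeq2, 13 with library totals only, 25 with the replicate block, 0 by edgeR with only its groups, where 134 genes had an unadjusted p under 0.05, and 0 to 5 without 1 replicate. The 0 was without replicate A of every group, where 215 genes had an unadjusted p under 0.05. The count of 9 for 3,4-dichlorophenyl isocyanate was 16 with DESeq2, of which 5 were shared and the other 4 had no adjusted p from that tool, 34 with the replicate block and 4 to 19 without 1 replicate. The cause of these shifts was not tested. Leaving out D2 replicate A for contrasts other than DMSO was chosen after seeing the data. Scaling moved the median of all genes by less than 0.1 on the log2 scale. The 405 probes past 2-fold in D1 were 408 with TMM-scaled CPM and 510 with no filter, with a single library and no test. At these totals a probe of 1 CPM holds less than 1 count, so genes near that level could not be compared.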
